A study of Rattus norvegicus with 18 samples.

Results

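Mki67 (ENSRNOG00000028137), Top2a (ENSRNOG00000053047) and Cdk1 (ENSRNOG00000000632) are 3 genes that dividing cells transcribe, and their RNA was followed here through 18 sequencing libraries of rat pancreatic beta cells. The genes were picked by their identifiers for what they are known to do, with earlier results of these data known. They are 3 of the 27654 genes in the deposited count table. All 3 passed the filter on low counts that left 14920 genes for testing. The labels give 4 groups: from old rats 4 Old quiescent and 4 Old replicative libraries, and from young rats 5 Young quiescent and 5 Young replicative libraries.

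Per the labels' protocols and the series text, islets taken from rats of both ages were kept overnight in RPMI1640 with 10% FBS and 11.1 mM glucose. All islets, those behind the quiescent groups included, were exposed to 10 micromolar EdU, a thymidine analogue that cells take up while they copy their DNA. Each of 9 islet batches pooled 2 rats and gave 1 replicating and 1 quiescent beta cell sample, collected by cell sorting. Nothing in the sources used here gives the strain, the ages in weeks, the sorting gate or how many cells went into a library. The labels name the cell type as pancreatic islets and the series text as beta cells. A check of that against beta cell markers was not made, because no table at hand pairs the other gene IDs with names.

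A cell that divides first copies its DNA in S phase, then passes through G2 into mitosis. Mki67 encodes Ki-67, a large nuclear protein that coats mitotic chromosomes and is the standard histological marker of cycling cells. Top2a encodes DNA topoisomerase II alpha, which untangles and helps compact chromosomes before they separate. Cdk1 encodes the cyclin-dependent kinase that, with its cyclin partners, starts mitosis. RNA of all 3 builds up from S phase into G2 and mitosis and is held low in resting cells. Adult beta cells divide rarely, and still more rarely with age, so these transcripts are commonly used to look for replicating beta cells.

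In many cell types, transcription of such late cell cycle genes is known to be controlled through short promoter elements. One is the CHR (cell cycle genes homology region), which binds the MuvB-based complexes DREAM and MMB, and another is the NF-Y box, bound by the factor NF-Y. The 250 bases before the transcript start are shown for the 3 members as background on these genes. Whether such elements act on the RNA levels measured here was not tested. The sequences are from RefSeq (GRCr8), read 5′ to 3′ on the gene's strand. Capitals mark matches on either strand to any of the motifs searched. The CHR was searched for as TTTGAA. A known variant of it was searched for apart, with the letters TTCGAA. The NF-Y box was searched for by its core letters, CCAAT. The E2F site, another element of cell cycle genes, was searched for in the forms TTTGGCGC or TTTCGCGC or TTTGCCGC or else TTTCCCGC.
Mki67, chr1:199952594-199952843, minus strand: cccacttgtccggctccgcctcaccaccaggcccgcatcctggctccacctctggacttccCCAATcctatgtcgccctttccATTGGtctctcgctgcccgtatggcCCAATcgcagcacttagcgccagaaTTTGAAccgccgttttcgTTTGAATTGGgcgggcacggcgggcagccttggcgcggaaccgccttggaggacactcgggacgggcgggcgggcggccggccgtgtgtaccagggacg
Top2a, chr10:84473094-84473343, minus strand: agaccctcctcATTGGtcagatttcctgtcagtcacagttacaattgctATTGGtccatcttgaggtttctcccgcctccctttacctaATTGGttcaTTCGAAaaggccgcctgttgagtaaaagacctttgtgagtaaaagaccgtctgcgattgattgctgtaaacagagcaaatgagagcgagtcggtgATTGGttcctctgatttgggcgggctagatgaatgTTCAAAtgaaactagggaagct
Cdk1, chr20:19265043-19265292, plus strand: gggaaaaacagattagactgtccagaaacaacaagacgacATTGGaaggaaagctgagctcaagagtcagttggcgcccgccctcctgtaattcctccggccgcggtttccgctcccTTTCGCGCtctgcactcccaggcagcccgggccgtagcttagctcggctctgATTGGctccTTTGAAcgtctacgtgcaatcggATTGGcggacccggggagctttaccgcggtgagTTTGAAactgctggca

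All 3 windows held at least 1 CHR and at least 3 NF-Y boxes. Mki67 had 2 CHR matches, beginning 117 and 99 bases before the start, and 4 NF-Y boxes, of which the nearest, on the other strand, shares a base with the second CHR. Top2a had 1 CHR on the other strand, beginning 22 bases before the start, 1 CHR variant and 4 NF-Y boxes. Cdk1 had 2 CHR matches, at 72 and 16 bases, 3 NF-Y boxes and 1 E2F form, TTTCGCGC, at 133 bases. Among 33469 RefSeq promoter windows of this length, 16.2% held a CHR, 2.09% at least 2 of them, and 34.0% an NF-Y box. At least 3 NF-Y boxes stood in 2.52% and at least 4 in 0.565%. A CHR and an NF-Y box stood together in 5.87%, and a CHR with at least 2 NF-Y boxes in 1.59%. The share with a CHR and at least 3 NF-Y boxes was not counted. The CHR variant stood in 1.40% and an E2F form in 1.73% of windows. A match is a run of letters and was not tested for binding here. For Mki67 and Cdk1, RefSeq also lists a transcript that starts further upstream, so part of those windows lies within the gene.

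**Figure D1:**
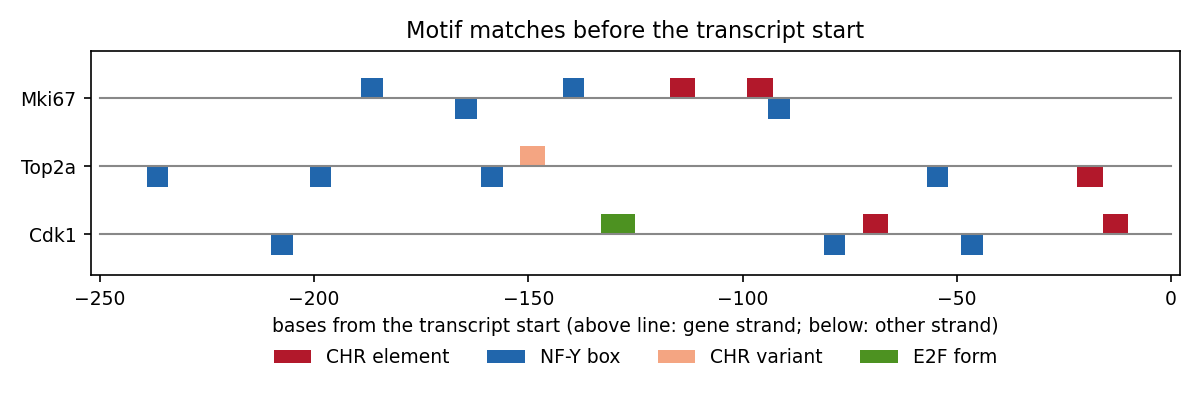
Motif matches in the 250 bases before the transcript start of each gene; the horizontal axis is the distance from the start in bases, boxes above a line lie on the gene's strand and boxes below it on the other strand. Each gene has at least 1 CHR element (red) and at least 3 NF-Y boxes (blue), and Cdk1 alone of the 3 has an E2F form (green).

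Total counts ran from 2723660 to 14222719 per library. The Old replicative libraries stood apart as a group: their mean Spearman correlations with the other libraries of their group were 0.667 to 0.755, lowest in replicate 3, against 0.842 to 0.974 in the other 3 groups. Results that rest on that library are given without it where it changed a call. Levels are given as CPM, the count scaled to a library total that is corrected by the TMM method. CPM are not per length, so levels of different genes are not compared.

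Mki67 was at 16.4 CPM or less in every quiescent library and at 796 CPM or more in every replicative library. In Old quiescent libraries it stood at 1.13, 3.23, 2.14 and 1.49 CPM, from 10, 29, 8 and 13 reads. In Old replicative libraries it stood at 1192, 1319, 796 and 1972 CPM, from 2537 reads at the fewest to 13404 at the most. The lowest replicative library, replicate 3, was 246-fold above the highest quiescent library. The log2 fold change was 9.36 (SE 0.466; edgeR adjusted p = 4.30e-12), a call also made for the other 2 genes. In the same model 7.16% of the 14920 genes were called higher in Old replicative cells, and 5.42% of genes were higher in all Old replicative than in all Old quiescent libraries. Because these are pools of sorted cells, more Mki67-expressing cells and more Mki67 RNA per cell cannot be told apart.

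In young islets Mki67 stood at 13.7, 16.4, 9.40, 8.32 and 4.89 CPM in the quiescent libraries, from 73, 45, 78, 98 and 34 reads. It stood at 1113, 1746, 1924, 1778 and 1267 CPM in the replicative libraries. Again no libraries overlapped, and the gap between the lowest replicative and the highest quiescent library was 68.1-fold. The log2 fold change was 7.25 (SE 0.375; edgeR adjusted p = 6.86e-12), in a comparison where 2.25% of genes were called higher and 4.45% had every replicative library above every quiescent library. By reads, Mki67 ranked between the 17th and 76th of all 27654 genes in each replicative library and between 7014th and 12718th in each quiescent library, where many genes with few reads are tied. Reads are not per length, so these ranks do not order genes by amount of RNA.

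Top2a showed the same split. It stood at 1.35, 2.90, 1.34 and 0.460 CPM in Old quiescent libraries, from 12, 26, 5 and 4 reads, and at 1085, 847, 914 and 844 CPM in Old replicative libraries. The replicative libraries lay close together, within 1.29-fold of each other. The log2 fold change was 9.22 (SE 0.614; edgeR adjusted p = 4.30e-10). In young islets it stood at 5.82, 5.45, 5.42, 3.23 and 0.288 CPM in the quiescent libraries, from 31, 15, 45, 38 and 2 reads. Young replicative libraries held 811, 1648, 1480.3, 1097 and 831 CPM. Replicate 5 of the quiescent group was below its companions and below every Old quiescent library, while replicates 1 and 5 were the lowest of the replicative group. The log2 fold change in young cells was 8.22 (SE 0.521; edgeR adjusted p = 1.59e-10).

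Cdk1 was almost absent from quiescent libraries, and it passed the filter on low counts through the replicative libraries alone. Old quiescent libraries held 0, 1, 1 and 0 reads of it, which is 2 reads in 4 libraries. A count of 0 allows up to 0.338 CPM in replicate 1 and 0.345 CPM in replicate 4, by a limit of 3 reads per library. Old replicative libraries held 1151, 1704, 358 and 651 reads, or 156, 178, 112 and 95.8 CPM. Pooled over each group, Cdk1 was 2174-fold higher in replicative libraries, with a 95% counting interval from 601 to 17954. The fitted log2 fold change of 10.64 (SE 0.716; edgeR adjusted p = 4.66e-10) depends on the prior count that edgeR adds to such low values.

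Young quiescent libraries held 4, 3, 5, 7 and 0 reads of Cdk1, or 0.751, 1.09, 0.602, 0.594 and 0 CPM, and the 0 allows up to 0.432 CPM. Young replicative libraries held 105, 185, 162, 139 and 64.9 CPM, with replicate 5 the lowest. The pooled ratio was 258-fold (95% counting interval 165 to 428) and the log2 fold change 7.85 (SE 0.531; edgeR adjusted p = 3.81e-10). Counting intervals and limits cover counting error alone, not the spread between batches. All 3 genes thus rose with replicative status at both ages, with no overlap between libraries. The cells were sorted as replicating or quiescent, and the genes were picked for their known part in division. This rise is therefore a check on the sort rather than an independent finding. Without Old replicative replicate 3 the log2 fold changes in old cells were 9.52 for Mki67, 9.19 for Top2a and 10.70 for Cdk1 (edgeR adjusted p = 3.01e-12, 2.45e-09 and 1.81e-10).

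**Figure D2:**
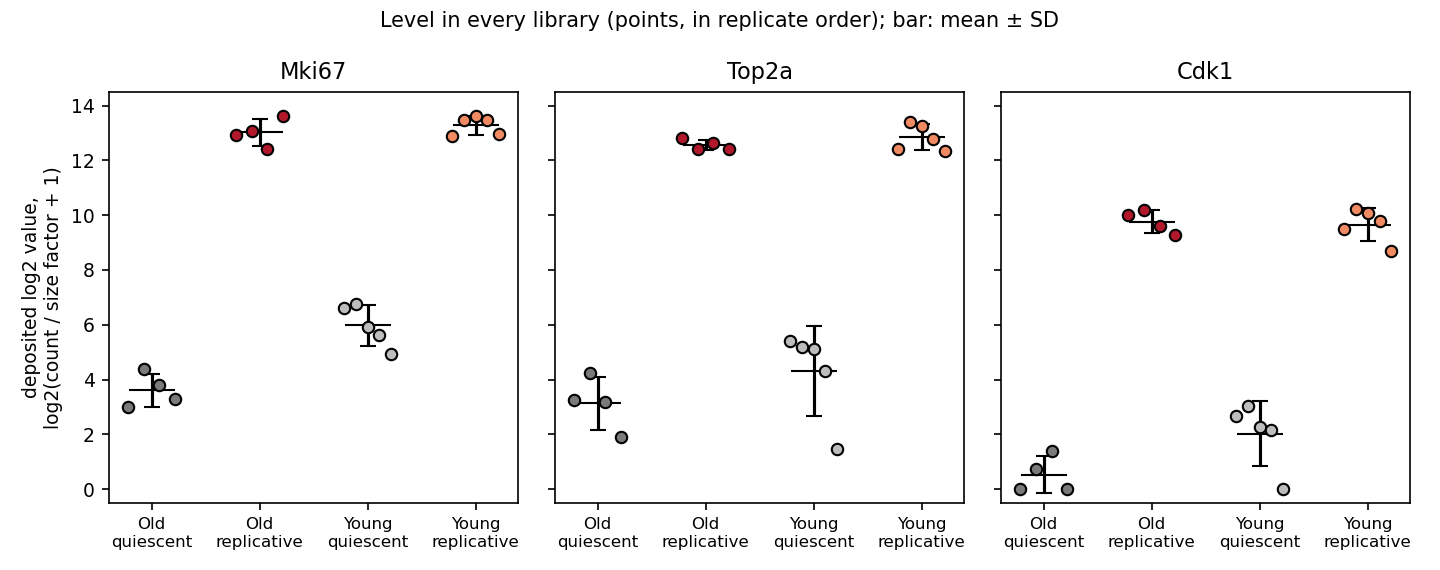
Deposited log2 values of Mki67, Top2a and Cdk1 (vertical axis, log2 of the count divided by a size factor, plus 1) in each of the 18 libraries by group; points are libraries and bars are the mean ± SD. Replicative libraries lie between 8.68 and 13.64 and quiescent libraries between 0 and 6.76 over the 3 genes, and 2 Old quiescent libraries and 1 Young quiescent library have Cdk1 at 0.

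The deposited log2 table gave the same picture on a scale where a count of 0 is 0. Mki67 averaged 3.61 ± 0.600 (SD, n = 4) in quiescent and 13.02 ± 0.493 (SD, n = 4) in replicative cells of old rats. In young rats it averaged 5.98 ± 0.743 (SD, n = 5) and 13.29 ± 0.339 (SD, n = 5). Top2a averaged 3.13 ± 0.957 and 12.57 ± 0.188 in old cells (SD, n = 4 each) and 4.30 ± 1.64 and 12.84 ± 0.472 in young cells (SD, n = 5 each). Cdk1 averaged 0.53 ± 0.665 and 9.77 ± 0.406 in old cells (SD, n = 4 each) and 2.02 ± 1.18 and 9.66 ± 0.614 in young cells (SD, n = 5 each). On this table, limma-trend called all 3 genes higher in replicative cells at both ages.

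The residual level in quiescent libraries was below 1% of the replicative level for each gene and age. The mean CPM of Old quiescent libraries was 0.151% of that of Old replicative libraries for Mki67, 0.164% for Top2a and 0.0698% for Cdk1. In young islets the corresponding values were 0.673%, 0.344% and 0.462%. Pooled reads gave 0.143% (95% counting interval 0.109% to 0.184%) for Mki67 in old and 0.581% (0.520% to 0.648%) in young cells. For Top2a the pooled values were 0.169% (0.124% to 0.224%) in old and 0.301% (0.252% to 0.357%) in young cells. For Cdk1 they were 0.0460% (0.00557% to 0.166%) in old and 0.388% (0.233% to 0.607%) in young cells, with the old value resting on 2 reads. These counting intervals cover counting error alone, not the spread between libraries, so they do not serve to compare the ages. The test over libraries of whether the rise differed with age is given below as an interaction. With all 18 libraries in edgeR, that test passed for none of the 3 genes (edgeR adjusted p = 0.0754, 0.652 and 0.258). These shares set quiescent against replicative cells in each age and so contain the replicative level as well.

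Among quiescent cells, Mki67 was lower in old than in young islets and passed the test. The 4 Old quiescent libraries averaged 2.00 ± 0.922 CPM (SD, n = 4) and the 5 Young quiescent libraries 10.5 ± 4.53 CPM (SD, n = 5). Every old library, 3.23 CPM at most, lay below every young library, 4.89 CPM at least. At that gap the 95% counting intervals overlapped. They were 2.16 to 4.64 CPM in Old quiescent replicate 2 and 3.39 to 6.84 CPM in Young quiescent replicate 5. The log2 difference was -2.36 (SE 0.368; edgeR adjusted p = 0.0118). In this comparison 0.0067% of genes, which is Mki67 itself, were called lower in old cells, and 3.45% had every old library below every young library. The fit of the 9 quiescent libraries alone, where 0.957% of genes were called lower, gave -2.41 (edgeR adjusted p = 0.0173).

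Top2a averaged 1.51 ± 1.01 CPM (SD, n = 4) in Old quiescent and 4.04 ± 2.34 CPM (SD, n = 5) in Young quiescent libraries, and the libraries overlapped because Young quiescent replicate 5 was the lowest of all 9. Its log2 difference of -1.35 (SE 0.506) did not pass the test (edgeR adjusted p = 0.776). Cdk1 averaged 0.0946 ± 0.126 CPM (SD, n = 4) and 0.608 ± 0.395 CPM (SD, n = 5), from 2 reads in old and 19 in young libraries. Pooled, Cdk1 was 8.20-fold higher in young cells with a 95% counting interval from 1.98 to 72.6, while the log2 difference of -2.75 (SE 0.849) did not pass the test (edgeR adjusted p = 0.462). The same pooled ratio was 4.72 (3.58 to 6.32) for Mki67 and 2.41 (1.71 to 3.43) for Top2a. These intervals cover counting error alone, not the spread between libraries, so they do not stand in for the test. All 3 fitted differences had the same sign, but these comparisons share their libraries. Cdk1, at 1.09 CPM at most in quiescent libraries, passed the filter of 1.39 CPM through the replicative libraries alone. Its sign is therefore no support for a difference between quiescent groups.

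The call for Mki67 between quiescent groups lay near the threshold. It was lost without Old quiescent replicate 4 or Young quiescent replicate 2 (edgeR adjusted p = 0.0649 and 0.0524), and without Young quiescent replicate 3 the adjusted p was at the threshold of 0.05, just above it. Over the alternatives that kept every library the adjusted p ran from 4.41e-06 to 1.00, with a log2 difference from -2.88 to -2.06.

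**Figure D3:**
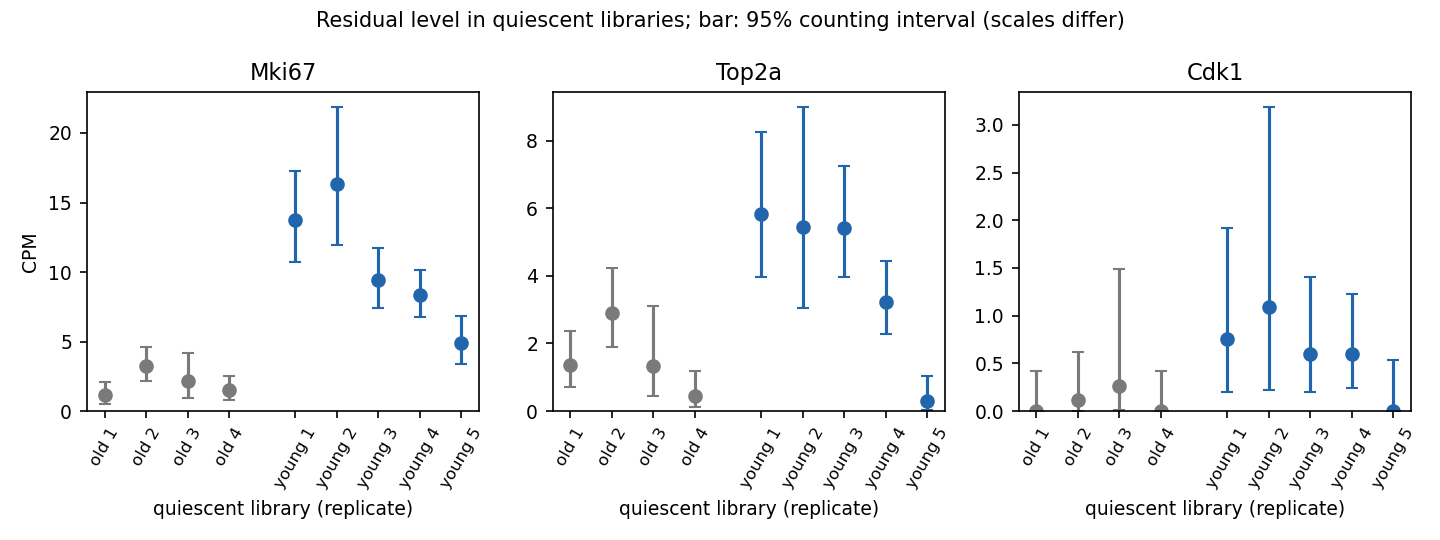
CPM of the 3 genes (vertical axes, with different scales) in the 4 Old quiescent (grey) and 5 Young quiescent (blue) libraries; points are libraries and bars are 95% Poisson counting intervals. For Mki67 the old libraries lie between 1.13 and 3.23 CPM and the young ones between 4.89 and 16.4 CPM, while for Top2a Young quiescent replicate 5 lies below every old library and for Cdk1 it is at 0 with 2 of the old libraries.

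Among replicative cells no difference between ages passed the test for any of the 3 genes. Mki67 averaged 1319.5 ± 488 CPM (SD, n = 4) in old and 1566 ± 354 CPM (SD, n = 5) in young cells, Top2a 922 ± 113 and 1173 ± 378 CPM, and Cdk1 135 ± 38.0 and 131 ± 47.5 CPM. The log2 differences, old minus young, were -0.25 (SE 0.300) for Mki67, -0.35 (SE 0.396) for Top2a and 0.04 (SE 0.387) for Cdk1 (edgeR adjusted p = 0.680, 0.657 and 0.965). The libraries of the ages overlapped for each gene. In this comparison 7.16% of genes were called in either direction in the 4-group model and 0.466% in the fit of the 9 replicative libraries alone, where none of the 3 was called. The missed threshold does not show that the levels were equal.

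Whether the rise with replicative status differed with age was tested as an interaction. It was 2.12 for Mki67 (SE 0.468; edgeR adjusted p = 0.0754), 1.00 for Top2a (SE 0.636; edgeR adjusted p = 0.652) and 2.79 for Cdk1 (SE 0.934; edgeR adjusted p = 0.258), each a larger fitted rise in old cells. None passed the test, and 0.0268% of genes did. For Mki67 the interaction passed in DESeq2 (2.24; adjusted p = 0.00422), and in edgeR without Old replicative replicate 1 (2.16; adjusted p = 0.0318) or replicate 3 (2.29; adjusted p = 0.0390). Over its other alternatives, the adjusted p ran up to 0.390.

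**Figure D4:**
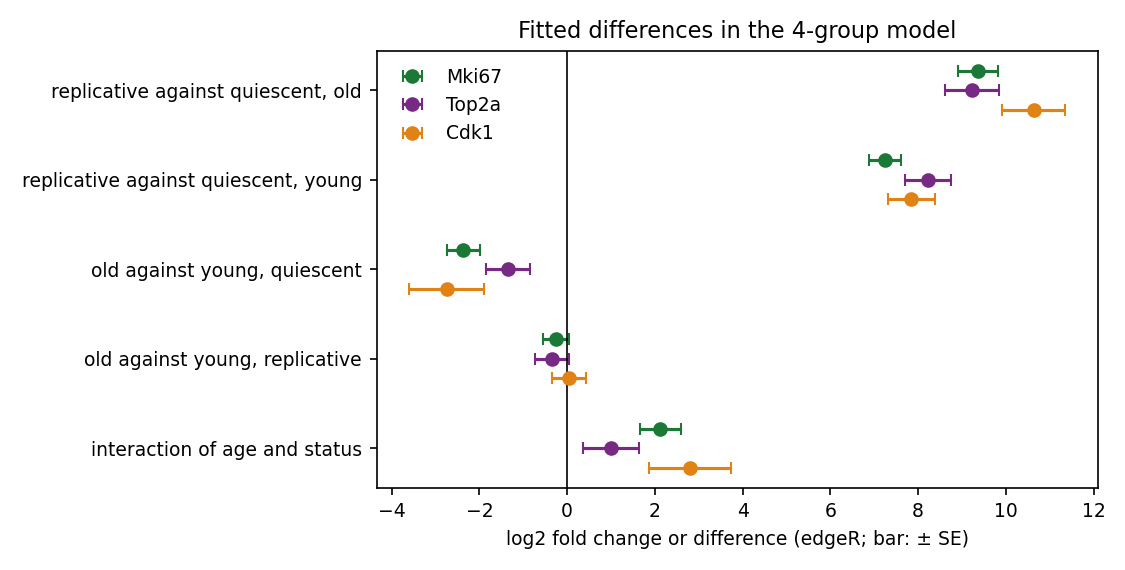
Fitted log2 fold changes or differences (horizontal axis) of the 3 genes in each comparison of the model with all 4 groups; points are edgeR estimates and bars are ± SE. The rises with replicative status lie between 7.25 and 10.64, and the age differences in replicative cells between -0.35 and 0.04.

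The proportions of the 3 transcripts to each other were compared next, since a ratio of reads within a library needs no scaling between libraries. In replicative libraries there were 0.428 to 1.15 Top2a reads per Mki67 read in old cells and 0.617 to 0.944 in young cells. Young quiescent libraries held 0.425, 0.333, 0.577, 0.388 and 0.0588 Top2a reads per Mki67 read. The highest of them, 0.577 from 45 and 78 reads, lay just below the lowest Young replicative library, 0.617. How many other pairs of genes separate these groups was not counted. The mean log2 ratio was -0.44 ± 0.237 (SD, n = 5) in replicative and -1.74 ± 1.18 (SD, n = 5) in quiescent cells of young rats. The exact two-sided permutation p of 0.00794 is the smallest this design gives, and it did not pass Benjamini-Hochberg adjustment over the 12 ratio tests (adjusted p = 0.0952). Old quiescent libraries held between 0.308 and 1.20 Top2a reads per Mki67 read, overlapping Old replicative libraries at 0.910, 0.643, 1.15 and 0.428 (exact permutation p = 0.943, adjusted p = 0.984).

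Pooled over the group, Young quiescent libraries held 0.399 Top2a reads per Mki67 read (95% counting interval 0.324 to 0.491) and Young replicative libraries 0.771 (0.761 to 0.780). Cdk1 reads per Mki67 read were 0.0579 (0.0344 to 0.0919) and 0.0867 (0.0842 to 0.0893) in the same groups. In old cells they were 0.0333 (0.00395 to 0.126) and 0.103, with the replicative value inside the quiescent interval, so no difference was detectable at this depth. For Cdk1 reads per Top2a read, pooled counts gave 0.145 (0.0846 to 0.236) in Young quiescent and 0.113 (0.109 to 0.116) in Young replicative libraries, so no difference was detectable at this depth. The mean difference of their log2 ratios was -0.65 (exact permutation p = 0.0238, adjusted p = 0.143), and this value is raised in size by the pseudocount, which lifts the ratios of the quiescent libraries with their 0 to 7 Cdk1 reads. Young quiescent replicate 5, with 0 Cdk1 and 2 Top2a reads, has a read ratio of 0, below all Young replicative libraries, but a log2 ratio with the pseudocount of -2.32, above all of them. None of the 12 ratio tests passed with the pseudocount of 0.5.

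**Figure D5:**
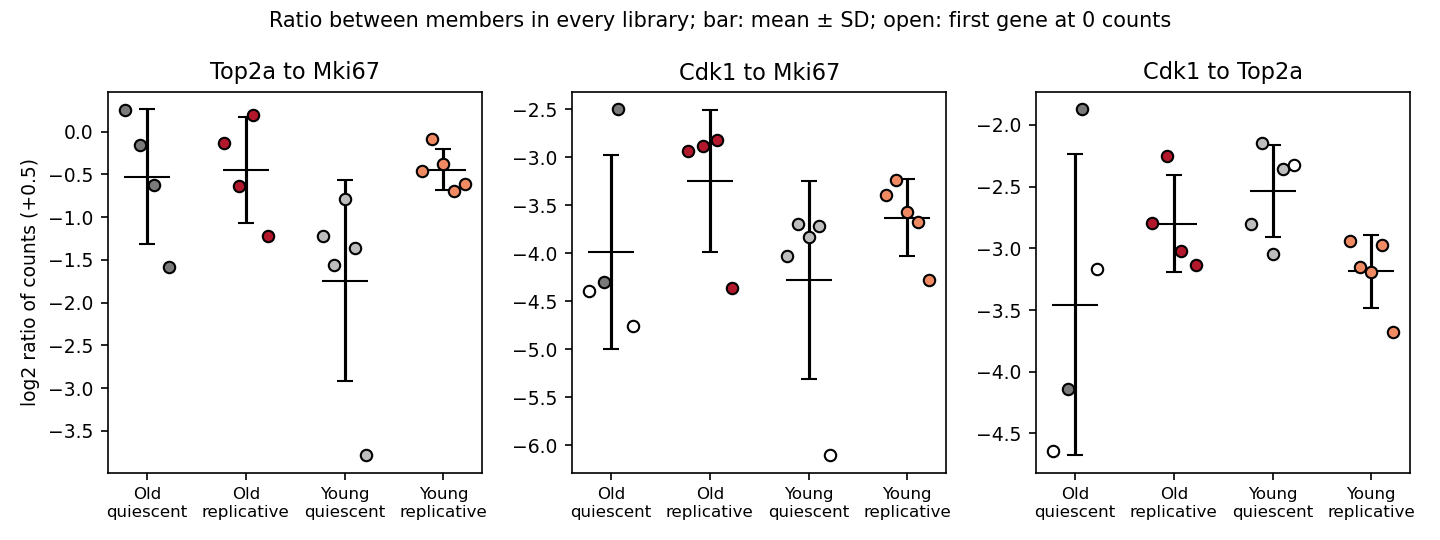
Log2 ratios of read counts, each with 0.5 added, between pairs of the 3 genes (vertical axes) in every library by group; points are libraries, open points have 0 reads of the first gene, and bars are the mean ± SD. The Top2a to Mki67 ratio of every Young quiescent library lies below that of every Young replicative library, and Old replicative replicate 4 has the lowest Cdk1 to Mki67 ratio of its group at -4.36.

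The spread of the 3 genes within a group was set beside that of other genes of like level, taken as those with a group mean CPM within 2-fold. In Old replicative libraries the coefficient of variation of Top2a was 12.2%, against a median of 28.8% over 151 such genes. That of Cdk1 was 28.1%, against 42.2% over 2648 genes, and that of Mki67 37.0%, against 31.8% over 88 genes. In Young replicative libraries the order was the other way for Top2a (32.3% against 20.8%) and Cdk1 (36.1% against 23.8%), while Mki67 was close to its median (22.6% against 23.8%). In quiescent libraries Mki67 was above the median of such genes in young rats (43.0% against 25.4%) and below it in old rats (46.2% against 50.7%). Top2a was above its median in quiescent libraries at both ages (57.8% against 39.6% in young and 67.1% against 56.4% in old rats). Cdk1, from at most 7 reads a library, was below its median in young (64.9% against 97.3%) and above it in old rats (134% against 123%). These values describe the libraries and were not tested.

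Within groups the genes varied together to different degrees. After removal of group means from log2 CPM, Pearson's r over the 9 quiescent libraries was 0.81 between Mki67 and Top2a, 0.84 between Mki67 and Cdk1 and 0.86 between Top2a and Cdk1. Over the 9 replicative libraries it was 0.77 between Top2a and Cdk1, 0.41 between Mki67 and Top2a and 0.31 between Mki67 and Cdk1. Old replicative replicate 4 shows how they can part: it had the highest Mki67 of its group, 1972 CPM, with the lowest Cdk1, 95.8 CPM, and the lowest Top2a, 844 CPM. Young quiescent replicate 5 had the lowest Mki67, Top2a and Cdk1 of its group (4.89, 0.288 and 0 CPM). The quiescent correlations without it were not computed. The points share library depth, and reads of the quiescent libraries are few, so the correlations are descriptions.

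Over all 18 libraries, where most of the pattern is the step between quiescent and replicative groups, each gene was among the closest to the others. Of 14919 other genes, Cdk1 was the most like Top2a (Pearson's r of log2 CPM 0.993), and Top2a was the second most like Cdk1. For Mki67, Cdk1 was the 9th and Top2a the 15th closest (r = 0.990 and 0.986). The gene most like both Mki67 and Cdk1 was ENSRNOG00000009339 (r = 0.996 with each), with an r of 0.81 with Mki67 and 0.85 with Cdk1 after removal of group means. The second closest to Mki67, ENSRNOG00000018929, had an r of 0.994. It stood at 0.761 ± 0.498 CPM in quiescent and 225 ± 50.2 CPM in replicative cells of old rats, and at 2.57 ± 1.35 and 372 ± 149.7 CPM in those of young rats (SD, n = 4 old and 5 young libraries per group). The files do not pair these IDs with names, so the other genes of the cell cycle could not be listed.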

How the data were processed

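Total RNA was made into libraries with a forward-stranded SMARTer kit, per the labels' protocols. The authors deposited raw counts for each Ensembl gene and a log2 table. The submitters' processing notes list STAR, DESeq2 and the genome build rn6, without saying what each was used for. Which program counted the reads, and with what strand setting, is not given in the sources used here. Values in the deposited log2 table equal log2 of the count over a median-of-ratios size factor, plus 1 (largest difference 5.15e-14). The symbols of the 3 members came with their IDs from the choice of genes. Of 47357 RefSeq entries 0 carry an Ensembl ID, so the lists of other cell cycle genes and of cell type markers were not run.

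The tests ran in edgeR 4.0.16 under R 4.3.3: filterByExpr (1.39 CPM in at least 4 libraries), TMM scaling, a single model of 4 group means, robust quasi-likelihood tests, and Benjamini-Hochberg adjustment over 14920 genes, with a threshold of 0.05. The code was tested on simulated data. The SE is the log2 fold change over the square root of F. Ratios (pseudocount 0.5) used exact permutation tests. Counting intervals are exact (Poisson or Clopper-Pearson, 95%). Alternatives used DESeq2 1.42.0 and limma 3.58.1. Per the series text, libraries of a group come from separate islet batches, and each batch gave a quiescent and a replicative library, so the 18 libraries are from 9 batches. The model treats them as independent, and its p-values measure the spread between libraries within groups, pooled for each gene over all 4 groups. The spread among replicative libraries thus enters the comparison of quiescent groups too. The named genes were the 3 members and the genes with the most similar log2 CPM (prior count 2), at most 2 by ID. The members and lists were chosen with earlier results of these data known.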

Additional observations from a re-analysis of the deposited data

Results flagged for a closer look

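In each group, the CPM of each gene and each ratio were checked for a library far from the rest. Of these 24 sets of values, 3 had such a library. Chance flags about 1 set in 20 where values are normally distributed. These sets share their counts and some rest on few reads, so that rate need not hold here. The Cdk1 to Mki67 log2 ratio of Old replicative replicate 4 was -4.36, while the other 3 libraries of the group lay between -2.93 and -2.82. In Young quiescent replicate 5 the Top2a to Mki67 log2 ratio was -3.79, from 2 and 34 reads, and the Cdk1 to Mki67 log2 ratio was -6.11, from 0 and 34 reads. The last value is set by the pseudocount. Young quiescent replicate 5 had 7689586 counts in all, between the other libraries of its group.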

How the results depend on the processing

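The rises of Mki67, Top2a and Cdk1 with replicative status kept their direction and their call at both ages under every alternative run, including RLE scaling, DESeq2, limma-voom with quality weights, no low-count filter, the 2 groups alone, thinning to 2723660 counts, the deposited log2 values, the replicate block and leaving out any library. Their log2 fold changes ran from 9.19 to 9.50, 9.14 to 9.54 and 9.24 to 11.57 in old, and from 7.15 to 7.39, 7.93 to 8.56 and 7.23 to 8.04 in young cells; leaving out a library gave 9.06 to 9.74, 8.88 to 9.80 and 10.20 to 11.25, and 7.06 to 7.43, 7.90 to 8.41 and 7.51 to 8.02.

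The difference of Mki67 between quiescent groups lost its call with the random replicate block in limma-voom (-2.23, adjusted p = 1.00), in limma-voom without block or weights (-2.26, adjusted p = 1.00) and in 1 of 5 random thinnings (-2.06, adjusted p = 0.107). Leaving out a library gave -2.75 to -2.14. The limma-voom fit without block or weights, the repeats of the thinning and a fit of 2 groups with no filter were chosen after seeing the data. For low counts the values moved most: Cdk1 ran from -4.27 to -1.49 between quiescent groups and from 1.61 to 4.34 in the interaction, with no call. Top2a ran from -1.96 to -1.12 between quiescent groups, and from -1.94 (without Old quiescent replicate 2) to -1.02 with a library left out. Its interaction ran from 0.91 to 1.62, and from 0.67 (without Old quiescent replicate 4) to 1.59 (without Old quiescent replicate 2), also with no call. The recomputed filter removed Cdk1 from the fit of quiescent libraries alone, and without a filter it was not called there (-2.69, adjusted p = 0.372). The interaction of Mki67 passed in DESeq2 (2.24) and ran from 1.83 to 2.50 with a library left out. The difference of Cdk1 between replicative groups changed sign in limma-voom with quality weights (-0.032) and with a library left out (-0.14 to 0.18). Leaving out a library also turned the sign of the Cdk1 to Mki67 ratio between quiescent groups (-0.20 to 0.55) and of the Top2a to Mki67 ratio between old groups by status (-0.27 to 0.34) and between replicative groups (-0.22 to 0.25). In young cells by status, a pseudocount of 1 gave 1.24 for Top2a to Mki67 and -0.89 for Cdk1 to Top2a, each with an adjusted p of 0.0476 in the exact permutation test. The second is no evidence of a difference, since the larger pseudocount lifts the quiescent ratios of 0 to 7 Cdk1 reads and leaves the replicative ratios as they are. The first kept its unadjusted p of 0.00794, and its adjusted p fell because the second reached the same p. They ran from 0.78 to 1.53 and from -0.78 to -0.53 with a library left out, and without Young quiescent replicate 3 both had an adjusted p of 0.0476 (exact permutation test). The cause of the other changes was not tested.

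Counts of all genes called moved more than the members. Replicative against quiescent cells gave 2053 genes in old (DESeq2 3183, limma-voom with weights 1055, 2 groups alone 540 or without filter 544, a library left out 1134 to 2916) and 368 in young cells (591, 2952, 786 or 761, and 293 to 552). Old against young gave 4 genes in quiescent cells (58, 1589, 258 or 522, no filter 8, and 0 to 14) and 1069 in replicative cells (2251, 231, 62 or 314, replicate block 1730, limma-voom without weights 1716, and 644 to 2211). The interaction gave 4 (DESeq2 291, limma-voom with weights 2, no filter 1, replicate block 11, log2 values 0, and 0 to 231). RLE scaling moved the median of all genes by 0.13 on the log2 scale in old cells by status.

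The labels do not say that a replicate number marks an islet batch. Same-numbered quiescent and replicative libraries correlated in their deviations from group means at 0.07 to 0.51, above 0.1 in 7 of 9 pairs, and all 9 quiescent and 8 of 9 replicative libraries correlated best with their own number, a hint from the data. With the replicate block the log2 fold changes by status were 9.40, 9.33 and 10.67 in old and 7.30, 8.33 and 7.86 in young cells for Mki67, Top2a and Cdk1. The only call on the 3 genes lost with it was that of Mki67 between quiescent groups. That fit was made in limma-voom, where the call was also lost without the block. For the ratios, the exact permutation test that swaps status within a number cannot go below p = 0.125 in old or 0.0625 in young cells, so it cannot pass the threshold.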
